A study of Mus musculus with 6 samples.

Results

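Nonsense-mediated decay (NMD) factors were followed in RNA sequencing libraries of mouse testis cells. The 9 genes described here, Upf1, Upf2, Upf3a, Upf3b, Smg1, Smg5, Smg6, Smg8 and Smg9, were taken by name from a deposited table of 54532 genes, and each matched 1 row. The labels describe suspensions of STRA8+ germ cells from testis, STRA8 being a protein of germ cells that enter meiosis under retinoic acid. There were 3 libraries labelled as conditional knockout and 3 control libraries whose genotype is given as Cre. The labels name neither the deleted gene, nor the promoter that drives the Cre, nor the animals' age or strain, and the extraction protocol speaks of retinas where all other labels say testis. Whether the libraries of a group came from separate animals is not stated either, so the p-values cover only the variation among these 6 libraries, part of which may be technical. BCAS2 and hnRNPH1 stand in the study's title, which is about splicing during meiosis.

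NMD removes messenger RNAs in which a ribosome stops too early, and it also sets the level of many normal transcripts. UPF1, an RNA helicase, is the central factor. UPF2 and a UPF3 protein connect it to the exon junction complex that splicing leaves on the RNA, and the SMG1 kinase, held in check by SMG8 and SMG9, phosphorylates it. Phosphorylated UPF1 then binds SMG6, which cuts the RNA, or SMG5, which leads to loss of the tail and cap. In mammals the messages of several NMD factors are themselves NMD targets. In mouse testis, UPF2 is required for spermatogenesis, and UPF1 and SMG6 are found in the chromatoid body, an RNA granule of spermatids.

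Levels are the authors' deposited FPKM, that is fragments divided by gene length in kilobases and by a divisor for the library. The 6 libraries held 14532453 to 16963019 reads, recovered from the FPKM and the gene lengths, and the 9 genes had 265 to 9671 reads per library. The divisor was a size factor and not the read total, and the summed FPKM came to 204688 to 211002 in the knockout libraries and 449532 to 504846 in the control libraries. The choice of scaling therefore moves every fold change. As deposited, the median log2 fold change of the 16791 genes tested, knockout over control, was -0.41. Rescaling the FPKM to sum to 1000000 raised it by 1.12, quantile normalization by 0.94, reads rescaled to 1000000 by 0.83 and limma voom on the recovered reads by 0.13. The voom fit multiplied read totals by trimmed mean of M values factors, that is trimmed means of log ratios between libraries. It therefore did not scale by read totals alone. Bcas2, a splicing factor of the PRP19 complex, had 4.78, 4.38 and 5.40 FPKM in the knockout libraries, against 19.8, 19.3 and 20.5 FPKM in the control libraries, and Hnrnph1 averaged 140.1 ± 14.0 FPKM in the knockout and 63.8 ± 3.26 FPKM in the control (SD, n = 3 each). Libraries of a group correlated across the genes tested, which are not independent, with r of 0.97 to 0.99, while r between the groups was 0.17 to 0.29.

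The cell markers differed strongly between the groups, and their part in the results below was not tested. Summed over 8 spermatid markers, the level was 4.06 to 6.96 FPKM in the knockout libraries and 15356 to 17887 FPKM in the control libraries. The 7 pachytene markers summed to 50.1 to 71.7 FPKM in the knockout and 4501 to 5408 FPKM in the control. Markers of spermatogonia (9 genes, Stra8 among them) summed to 567.4 to 667.9 FPKM in the knockout and 73.1 to 118.1 FPKM in the control, and those of early prophase (7 genes) to 410.3 to 568.7 FPKM in the knockout and 319.5 to 356.7 FPKM in the control. In the control libraries, the sums for pachytene and spermatid markers, stages past STRA8, exceeded those for spermatogonia and early prophase. Sums over unlike genes do not give the share of each cell type. As deposited, Gfra1 was called lower (0.749 FPKM in the knockout, 2.04 in the control) and the other genes of the spermatogonia list higher. Within early prophase, Sycp3, Prdm9, Gm4969 and Dmc1 were called higher. Spo11 was called lower (6.13 FPKM in the knockout, 26.3 in the control), and Meioc and Hormad1 were not called. Of the somatic lists, the 8 Sertoli markers summed to 392.4 to 722.9 FPKM in the knockout and 86.4 to 206.7 FPKM in the control, and the 6 macrophage markers to 65.3 to 218.7 FPKM in the knockout and 40.9 to 71.9 FPKM in the control. The 6 Leydig markers, with 15.0 to 66.7 FPKM in the knockout and 86.2 to 141.9 FPKM in the control, and the 4 peritubular markers, with 19.7 to 36.7 FPKM in the knockout and 13.4 to 31.3 FPKM in the control, completed the somatic lists. As deposited, the groups did not overlap for the Leydig sum, which was lower in the knockout, and overlapped for the peritubular sum. As a share of all FPKM this turned. The Leydig share was 0.0073% to 0.0325% in the knockout and 0.0171% to 0.0316% in the control. The peritubular share was 0.0096% to 0.0174% in the knockout and 0.0027% to 0.0070% in the control. Within the Leydig list, Star was called higher as deposited, Cyp11a1, Cyp17a1 and Insl3 lower, and Hsd3b1 was not called. Every marker of these 8 lists had reads in both groups. In bulk libraries, fewer cells of a type and less RNA per cell cannot be told apart.

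The design holds 1 comparison, between the knockout and the control, and it was read here for the NMD machinery. All 9 genes passed the filter of a mean of at least 1 FPKM. As deposited, 6 were lower in the knockout, 2 were higher and 1 did not pass the test, which was limma on log2(FPKM + 0.5) with a Benjamini-Hochberg adjusted p under 0.05 over all genes tested. A call was the rule in these data: 86.6% of all genes tested passed, 36.2% higher and 50.4% lower. In 8 of the 9 genes the groups did not overlap, a pattern that 88% of all genes tested had. These shares do not set the 9 apart from other genes. The median log2 fold change of the 9 was -0.40 as deposited, 0.01 above that of every gene tested. When FPKM was rescaled to sum to 1000000, 5 of the 9 were called higher and 3 lower, beside 54.2% and 36.2% of all genes, and with reads rescaled to 1000000, 5 were higher and 4 lower, beside 50.6% and 38.9%. Quantile normalization gave 4 higher and 3 lower, beside 52.1% and 36.8%, and limma voom 2 higher and 5 lower, beside 38.9% and 48.1%. Upf3a and Smg9 were called lower, and Smg1 and Smg8 higher, under the deposited scaling and the other 4 scalings or models. The other 5 genes lost the call, gained one or changed sign under at least 1 of them.

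**Figure D1:**
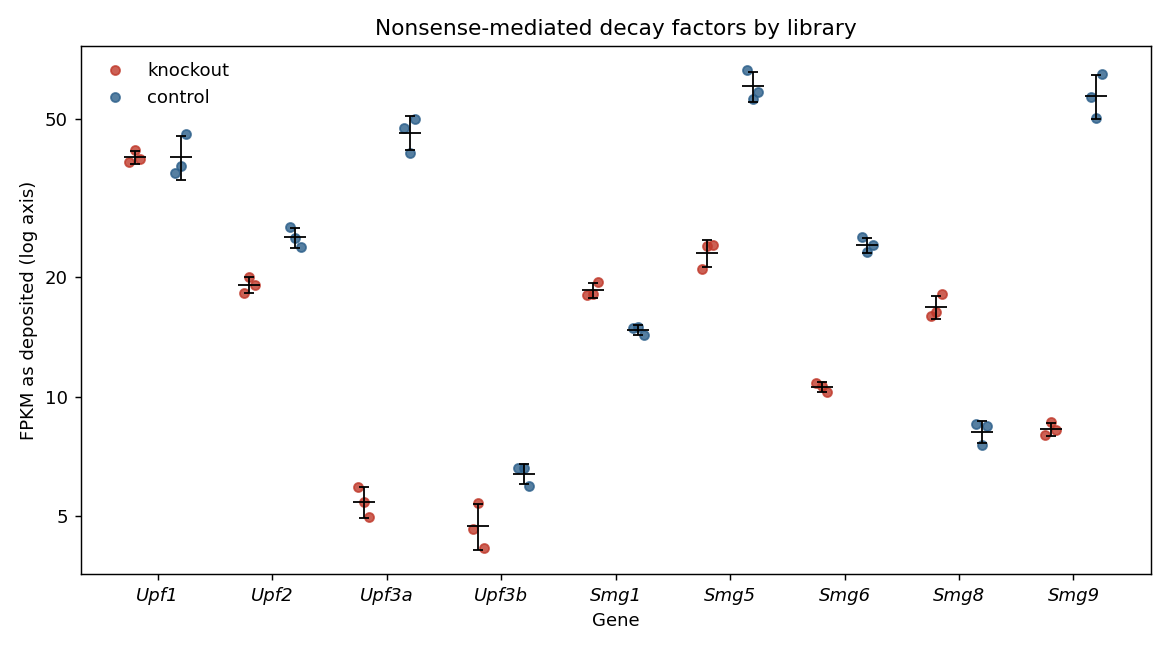
FPKM as deposited (log axis) of the 9 NMD factors in each library, knockout to the left of control for each gene, with dots for libraries and black marks for the mean ± SD over 3 libraries. Upf3a and Smg9 lie far lower in the knockout, with means of 5.45 and 8.29 FPKM against 46.1 and 57.2 FPKM in the control, Smg8 lies higher, and the groups overlap for Upf1.

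Upf1 and Upf2 form the core of the pathway. Upf1 had 38.8, 41.7 and 39.5 FPKM in the knockout libraries, against 36.5, 38.0 and 45.9 FPKM in the control libraries. The groups overlapped as deposited, and the log2 fold change was 0.00 ± 0.11 (SE, n = 3 each, limma adjusted p = 0.98), with a 95% interval of -0.24 to 0.25. This near-equal level depends on the scaling, because Upf1 was called higher with reads rescaled to 1000000 (0.91), with FPKM rescaled to sum to 1000000 (1.19) and after quantile normalization (1.30). Its percentile rank by level among the genes tested was 95.4 to 95.7 in the knockout and 84.0 to 88.0 in the control. A rank is not changed by a factor for the whole library, but it depends on the other genes tested. These include genes that pass the filter only through the control, such as Prm1, at 0.40 FPKM in the knockout and 5293 in the control. As deposited, 13077 to 13235 genes reached 1 FPKM in the knockout libraries and 16653 to 16877 in the control libraries. Upf2, the adaptor between UPF1 and the UPF3 proteins, had 18.2, 19.9 and 19.1 FPKM in the knockout libraries, against 26.6, 25.1 and 23.7 FPKM in the control libraries. All knockout values were lower, with a log2 fold change of -0.39 ± 0.09 (SE, limma adjusted p = 0.0035), but the sign turned with reads rescaled to 1000000 (0.51), quantile normalization (0.59) and FPKM rescaled to sum to 1000000 (0.79). Upf2 ranked at the percentiles 85.9 to 86.9 in the knockout libraries and 78.6 to 80.0 in the control libraries. Its log2 fold change was 0.03 relative to the median of all genes, so this higher rank does not set it apart from other genes.

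The UPF3 paralogs, which connect UPF2 to the exon junction complex, had group differences of very unequal size. UPF3B is the main activator of the pair, and UPF3A is a weaker one that was described as an inhibitor of NMD in some mouse tissues. Upf3a had 5.94, 5.43 and 4.97 FPKM in the knockout libraries, against 47.4, 41.1 and 49.9 FPKM in the control libraries. The knockout mean of 5.45 ± 0.48 FPKM was 0.118 times the control mean of 46.1 ± 4.56 FPKM (SD, n = 3 each). The log2 fold change was -2.97 ± 0.11 (SE, limma adjusted p = 8.1e-08), or -2.56 relative to the median of all genes, and lay between -2.97 and -1.87 over the scalings. It rested on 604 to 754 reads per knockout library and 2790 to 3609 per control library. Upf3a ranked at the percentiles 55.7 to 59.8 in the knockout and 86.9 to 88.9 in the control.

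Upf3b, the X-linked paralog, had 4.66, 5.40 and 4.15 FPKM in the knockout libraries, against 6.60, 6.60 and 5.97 FPKM in the control libraries. The knockout libraries were lower as deposited, by a log2 fold change of -0.40 ± 0.13 (SE, limma adjusted p = 0.016). This call did not hold with limma voom on the reads (adjusted p = 0.12), without knockout replicate 3 (0.067) or without control replicate 2 (0.051), and Upf3b was higher in the knockout with reads rescaled to 1000000 (0.44), quantile normalization (0.24, not called) and FPKM rescaled to sum to 1000000 (0.73). It was the lowest of the 9 genes in both groups, at the percentiles 51.5 to 57.2 in the knockout and 48.4 to 50.9 in the control. Relative to the median of all genes, the log2 fold change of Upf3b was 0.01.

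A ratio of 2 genes in the same library is not changed by any factor that divides the whole library, though quantile normalization can change it. Upf3a stood at 1.28, 1.00 and 1.20 times the FPKM of Upf3b in the knockout libraries, against 7.18, 6.22 and 8.37 times in the control libraries. The paralogs were thus at about the same level per length in the knockout, and Upf3a was well above Upf3b in every control library. The log2 difference of the ratio, knockout minus control, was -2.64 ± 0.16 (SE). The exact two-sided permutation test gave p = 0.1, the smallest that 3 against 3 libraries allow, for this and for each of the other 4 pairs compared, and the p adjusted over the 5 pairs was also 0.1.

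The promoters of the paralogs, from 250 bases before to 50 after the annotated start in RefSeq for GRCm38.p6, are shown because the pair separated so far. Upf3a lies at chr8:13785365-13785664 on the plus strand and Upf3b at chrX:37110273-37110572 on the minus strand. Capitals mark matches, on either strand, to 5 motifs: CNCCTCAG, the motif described for STRA8 and MEIOSIN in mouse, TAACNG for MYB proteins, TGACGTCA for CREB and CREM, CCGGAAG for ETS proteins and GCGCATG for NRF1. Matches of 1 motif that share bases were counted once. The motifs were chosen with the values known.
Upf3a: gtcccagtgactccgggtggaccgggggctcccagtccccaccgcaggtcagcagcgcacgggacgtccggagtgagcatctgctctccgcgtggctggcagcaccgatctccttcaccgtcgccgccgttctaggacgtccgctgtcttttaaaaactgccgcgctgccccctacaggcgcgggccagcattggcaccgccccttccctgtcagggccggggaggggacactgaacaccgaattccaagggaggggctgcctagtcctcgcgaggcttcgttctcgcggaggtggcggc
Upf3b: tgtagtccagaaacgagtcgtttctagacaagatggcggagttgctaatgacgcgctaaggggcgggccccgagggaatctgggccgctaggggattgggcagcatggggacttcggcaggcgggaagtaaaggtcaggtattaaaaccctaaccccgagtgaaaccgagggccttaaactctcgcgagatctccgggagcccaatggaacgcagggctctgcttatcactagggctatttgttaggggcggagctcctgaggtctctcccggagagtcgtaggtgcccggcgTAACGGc
The Upf3a window held none of the 5 motifs, and the Upf3b window held 1 MYB match at its end. A MYB match is present in 23.3% of the 32851 promoters of the table. A match is a description and not a site of binding.

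The genes of the SMG1 kinase complex went in different directions, Smg1 and Smg8 being higher in the knockout and Smg9 lower. Smg1, the kinase that phosphorylates UPF1, had 17.97, 18.1 and 19.5 FPKM in the knockout libraries, against 14.9, 15.0 and 14.3 FPKM in the control libraries. All knockout libraries were higher, and the log2 fold change was 0.32 ± 0.09 (SE, limma adjusted p = 0.0076), with a range of 0.32 to 1.50 over the scalings. Its percentile rank was 84.9 to 86.6 in the knockout and 68.9 to 70.2 in the control. Smg8, a subunit that restrains the kinase, had 15.9, 16.4 and 18.1 FPKM in the knockout libraries, against 8.51, 7.55 and 8.42 FPKM in the control libraries. The groups were far apart, with the knockout mean 2.06 times the control mean. The log2 fold change was 1.00 ± 0.10 (SE, limma adjusted p = 2.9e-05), 1.41 relative to all genes and up to 2.20 with FPKM rescaled to sum to 1000000.

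Smg9, the partner of SMG8 in that complex, went the other way. It had 8.0, 8.62 and 8.26 FPKM in the knockout libraries, against 56.5, 50.2 and 64.8 FPKM in the control libraries. The knockout mean of 8.29 ± 0.31 FPKM was 0.145 times the control mean of 57.2 ± 7.33 FPKM (SD, n = 3 each). The log2 fold change was -2.71 ± 0.11 (SE, limma adjusted p = 1.3e-07), -2.29 relative to all genes, and between -2.71 and -1.58 over the scalings. In percentile rank Smg9 stood at 67.1 to 68.3 in the knockout, below Smg8 at 82.9 to 85.3. In the control libraries Smg9 stood at 89.1 to 91.5 and Smg8 at 54.4 to 57.0, so the order of the pair was opposite in the groups. The ratio of Smg8 to Smg9 was 1.99, 1.90 and 2.19 in the knockout libraries, against 0.151, 0.150 and 0.130 in the control libraries. This log2 difference of 3.82 ± 0.09 (SE, exact permutation p = 0.1) was the largest of the 5 pairs compared.

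**Figure D2:**
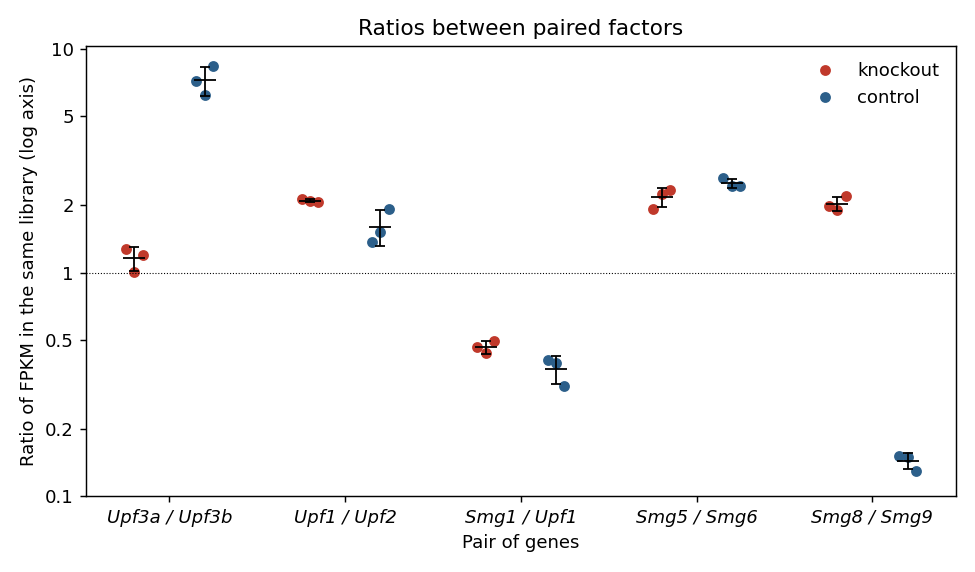
Ratio of the FPKM of paired genes within the same library (log axis), knockout to the left of control, with dots for libraries and black marks for the mean ± SD over 3 libraries. The mean Upf3a to Upf3b ratio is 1.16 in the knockout and 7.26 in the control, and the mean Smg8 to Smg9 ratio is 2.03 in the knockout and 0.144 in the control, on opposite sides of 1.

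The promoters of Smg8, at chr11:87086728-87087027 on the minus strand, and of Smg9, at chr7:24399378-24399677 on the plus strand, are shown with the same motifs in capitals, because this pair changed order.
Smg8: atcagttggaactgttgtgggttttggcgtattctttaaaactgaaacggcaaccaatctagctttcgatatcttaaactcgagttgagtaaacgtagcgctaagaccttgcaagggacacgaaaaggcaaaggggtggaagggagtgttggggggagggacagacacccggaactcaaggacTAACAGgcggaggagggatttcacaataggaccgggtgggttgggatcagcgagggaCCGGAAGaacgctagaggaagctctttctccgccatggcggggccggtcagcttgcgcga
Smg9: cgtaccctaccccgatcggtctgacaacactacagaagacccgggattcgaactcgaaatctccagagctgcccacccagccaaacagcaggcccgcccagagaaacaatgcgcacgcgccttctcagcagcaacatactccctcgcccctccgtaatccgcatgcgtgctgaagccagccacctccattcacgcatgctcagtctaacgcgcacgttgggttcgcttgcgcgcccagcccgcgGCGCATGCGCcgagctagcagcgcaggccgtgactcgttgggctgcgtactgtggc
The Smg8 window held 1 MYB match and 1 ETS match, and the Smg9 window held 1 NRF1 match. The NRF1 motif was also found 1 time in the Upf1 window, so 2 of the 9 promoters held it, against 3.91% of all promoters in the table. An ETS match is present in 8.86% of them. No CREB or STRA8 motif was found in the 9 windows, and these motifs are in 1.79% and 7.94% of all promoters. The windows of the 9 genes had a GC content of 53.3% (Smg8) to 72.3% (Upf1), against a median of 52.7% over all promoters. The motifs matched in them did not overlap each other.

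The effectors that act on phosphorylated UPF1 were lower as deposited. Smg5, the adaptor that brings decapping and deadenylation, had 20.9, 23.9 and 24.1 FPKM in the knockout libraries, against 66.3, 56.1 and 58.3 FPKM in the control libraries. The groups were well separated, at a log2 fold change of -1.37 ± 0.10 (SE, limma adjusted p = 4.9e-06), or -0.96 relative to all genes. It stayed below 0 under the other scalings, at -0.20 with FPKM rescaled to sum to 1000000 and -0.13 after quantile normalization, where it was not called (adjusted p = 0.18). Its percentile rank was 88.3 to 90.3 in the knockout and 90.4 to 90.8 in the control. Smg6, the endonuclease, had 10.8, 10.6 and 10.3 FPKM in the knockout libraries, against 25.1, 23.0 and 24.0 FPKM in the control libraries. All knockout values were lower as deposited, with a log2 fold change of -1.15 ± 0.09 (SE, limma adjusted p = 5.0e-06), -0.74 relative to all genes, but the difference was 0.00 with FPKM rescaled to sum to 1000000 (adjusted p = 0.98). Smg6 ranked at the percentiles 72.8 to 74.5 in the knockout and 78.5 to 78.8 in the control.

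The ratio of Smg5 to Smg6 differed less between the groups. Smg5 had 1.93, 2.25 and 2.35 times the FPKM of Smg6 in the knockout libraries, against 2.64, 2.44 and 2.43 times in the control libraries. The groups did not overlap, but the log2 difference was -0.20 ± 0.09 (SE, exact permutation p = 0.1), moved to -0.12 without knockout replicate 1 and turned to 0.23 after quantile normalization. Upf1 stood at 2.13, 2.09 and 2.07 times Upf2 in the knockout and at 1.37, 1.52 and 1.93 times in the control, a log2 difference of 0.40 ± 0.15 (SE, exact permutation p = 0.1), or 0.71 after quantile normalization. For Smg1 over Upf1 the ratios were 0.463, 0.435 and 0.493 in the knockout and 0.408, 0.394 and 0.311 in the control, a log2 difference of 0.33 ± 0.13 (SE, exact permutation p = 0.1), which moved to 0.21 without control replicate 3 and turned to -0.10 after quantile normalization.

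**Figure D3:**
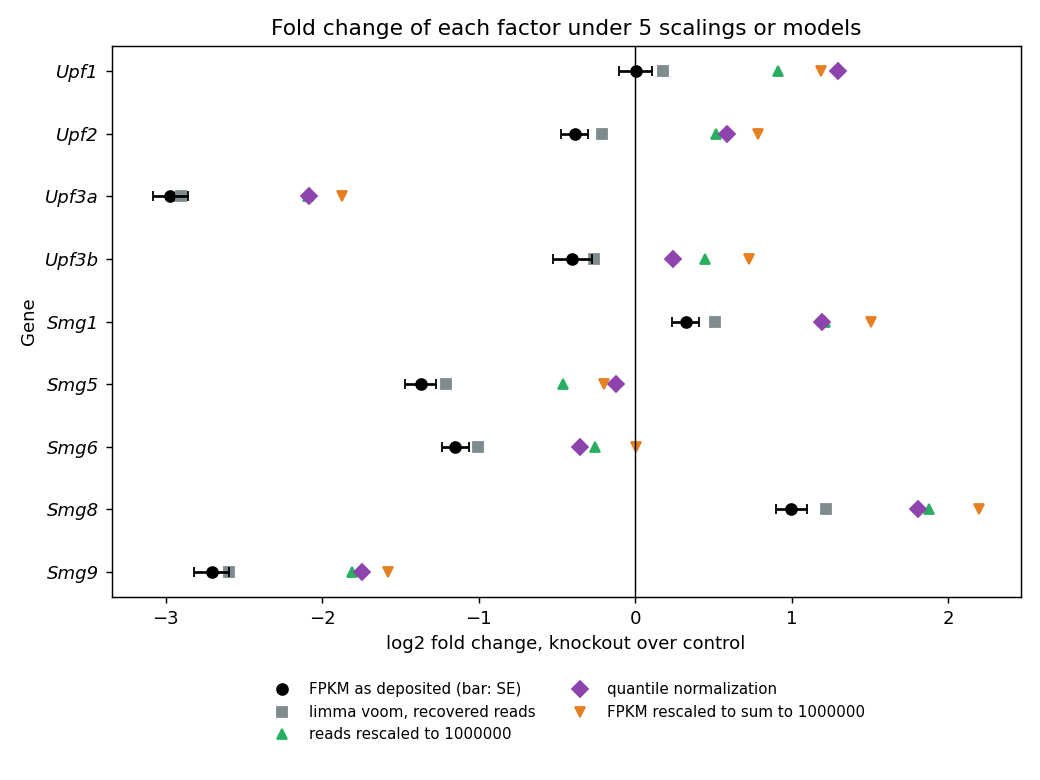
Fold change of each gene (log2, knockout over control) as deposited, with its SE, and under 3 other scalings and limma voom on the recovered reads. Upf3a and Smg9 stay below -1.5 and Smg8 and Smg1 stay above 0 under all 5, while Upf2 and Upf3b lie on either side of 0 and Smg6 reaches 0.00.

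Per length, the 9 genes had another order in each group. In the knockout, Upf1 was the highest with 40.0 ± 1.51 FPKM and 27.3% of the summed FPKM of the 9, ahead of Smg5. Upf2, Smg1 and Smg8 came next, at 19.1, 18.5 and 16.8 FPKM, and neighbours in that order overlapped between libraries. Smg6 and Smg9 followed, and Upf3a and Upf3b, which overlapped, were the lowest. In the control, Smg5 and Smg9 were the highest and overlapped, with 60.2 ± 5.34 and 57.2 ± 7.33 FPKM (SD, n = 3). Upf3a and Upf1 overlapped in the next places, as did Upf2 and Smg6, ahead of Smg1, Smg8 and Upf3b. Upf3a and Smg9 made up 3.73% and 5.66% of the summed FPKM of the 9 in the knockout, against 16.3% and 20.2% in the control. The sum itself was 146.4 ± 4.57 FPKM in the knockout and 282.2 ± 17.2 FPKM in the control, which was 0.0689% to 0.0723% of all FPKM in the knockout libraries and 0.0571% to 0.0639% in the control libraries, so the direction of the sum flips with the scaling.

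**Figure D4:**
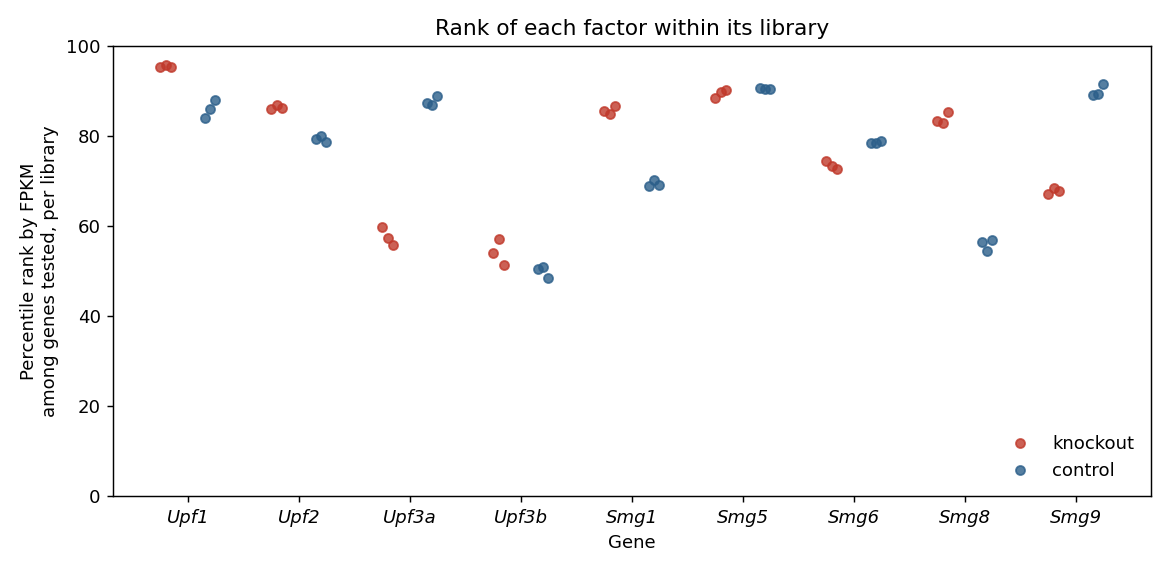
Percentile rank of each gene by FPKM among the 16791 genes tested, within each library, knockout to the left of control, with a dot for each library. The groups do not overlap for any of the 9: Upf1, Upf2, Upf3b, Smg1 and Smg8 rank higher in all knockout libraries and Upf3a, Smg5, Smg6 and Smg9 lower, with Upf3a at 55.7 to 59.8 in the knockout and 86.9 to 88.9 in the control. A rank depends on the other genes tested, which include genes that pass the filter only through the control. How many of all genes tested do not overlap in rank was not counted. In deposited FPKM, 88% of them did not overlap.

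The deposited gene lengths equal the merged exons of all transcripts that GENCODE M21 annotates for each of the 9 genes, from 3218 bases for Smg8 to 23984 for Smg1. FPKM of a gene with many annotated transcripts with retained introns is therefore lower than per length of its mature message, which touches levels between genes. Whether the groups used the isoforms of a gene equally was not tested. GENCODE lists retained-intron transcripts for Smg1 (5 of 10 transcripts), Smg5 (5 of 9), Smg9 (4 of 7), Upf3a (2 of 3) and Smg6 (1 of 6). A transcript of the class nonsense-mediated decay is annotated for 3 of the 9, Smg1, Smg5 and Smg6, as for 27.6% of the 12696 protein-coding genes tested. The values cover whole genes and do not separate these isoforms. Exons of Upf1 overlap those of Cers1 and Gdf1 on the other strand by at most 68 bases, and exons of Smg6 overlap Srr and Gm12333 by at most 126 bases. Whether the counting used strand is not given in the sources used here, but Srr, the highest of these 4 neighbours, averaged 2.92 ± 0.38 FPKM in the knockout and 9.80 ± 0.56 FPKM in the control (SD, n = 3 each), below Smg6 in both.

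For each of the 9, the protein-coding gene with the nearest profile over the 6 libraries was found by the Euclidean distance between centred log2(FPKM + 0.5) values. Upf3a was nearest to Sil1 (distance 0.14), which averaged 12.3 ± 1.39 FPKM in the knockout and 96.4 ± 7.12 FPKM in the control. Smg9 was nearest to Enkd1 (0.12), with 4.25 ± 0.26 FPKM in the knockout and 30.5 ± 3.18 FPKM in the control. Smg8 was nearest to Usp35 (0.04), with 3.43 ± 0.31 FPKM in the knockout and 1.47 ± 0.10 FPKM in the control (SD, n = 3 each). The nearest genes to Upf1, Upf2, Upf3b, Smg1, Smg5 and Smg6 were Bcl2l13, Aftph, Eps15, Plekha3, Rfesd and Sec16a, at distances of 0.03 to 0.10. Each distance is over 6 libraries in 2 groups and is a description.

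Genes that act with the 9, and genes with transcripts known as NMD targets, were read from 5 lists. Of 6 auxiliary NMD factors, 3 were lower and 2 higher, with a median log2 fold change of -0.64, beside 50.4% lower, 36.2% higher and a median of -0.41 for all genes tested. The shares in the list were near those of all genes. Only 1 was higher with no filter, with no trend, with the replicate number as a block and without knockout replicate 1, 2 or 3 or control replicate 1 or 2. Under the 3 other scalings 3 were higher, where 50.6% to 54.2% of all genes were. Ruvbl2, an ATPase that works with the SMG1 kinase, averaged 13.5 ± 0.87 FPKM in the knockout and 71.0 ± 5.92 FPKM in the control (log2 fold change -2.35, limma adjusted p = 1.4e-07). Nbas, a factor of NMD at the endoplasmic reticulum, averaged 4.56 ± 0.33 FPKM in the knockout and 19.9 ± 1.41 FPKM in the control (log2 fold change -2.01, limma adjusted p = 5.4e-07). Dhx34, a helicase that promotes UPF1 phosphorylation in human cells, was also lower (-1.39), though not called with FPKM rescaled to sum to 1000000 (adjusted p = 0.056). Mov10, a helicase that binds UPF1, was higher (2.12). Ruvbl1, also in the list, was higher as deposited (0.23, limma adjusted p = 0.047) but lost the call in the settings that left 1.

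Genes of the exon junction complex, the mark that UPF3 proteins read, were mostly higher. Of 7, 6 were higher and none was lower, with a median log2 fold change of 1.25, beside -0.41 and 36.2% higher for all genes tested. Those 6 were also called higher under the 3 other scalings, where 50.6% to 54.2% of all genes were. With limma voom they were called higher too, beside 38.9% of all genes. Cwc22, which brings the core helicase of the complex to the spliceosome, averaged 36.3 ± 0.67 FPKM in the knockout and 2.56 ± 0.17 FPKM in the control (log2 fold change 3.59, limma adjusted p = 9.9e-09). Rnps1, a peripheral subunit, averaged 91.6 ± 1.27 FPKM in the knockout and 22.9 ± 2.55 FPKM in the control, a log2 fold change of 1.98. Rbm8a and Magoh, which form the core dimer, had log2 fold changes of 1.25 and 1.28.

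Of 6 genes of translation termination and cap binding, 3 were lower and 2 higher, with a median log2 fold change of -0.37, near the 50.4% lower, 36.2% higher and median of -0.41 of all genes tested. With FPKM rescaled to sum to 1000000 and after quantile normalization 4 were higher, beside 54.2% and 52.1% of all genes. Pabpc1, the cytoplasmic poly(A)-binding protein that opposes NMD, averaged 135.3 ± 8.49 FPKM in the knockout and 702.0 ± 59.1 FPKM in the control, a log2 fold change of -2.37 (limma adjusted p = 1.6e-07). Ncbp1, the large subunit of the nuclear cap-binding complex, averaged 38.1 ± 2.04 FPKM in the knockout and 197.1 ± 20.3 FPKM in the control. Its log2 fold change was -2.35, while Ncbp2, in the same list, was higher (0.42). Gspt2, one of the genes for release factor eRF3, was higher (1.63), and Etf1, release factor eRF1, was lower as deposited (-0.79) but higher with FPKM rescaled to sum to 1000000 (0.39).

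Of 8 genes of decapping and decay, 4 were higher and 3 lower, with a median log2 fold change of 0.40, beside 36.2% higher, 50.4% lower and a median of -0.41 for all genes tested. With FPKM rescaled to sum to 1000000 and after quantile normalization, 7 were higher and 1 lower, beside 54.2% and 52.1% of all genes higher and 36.2% and 36.8% lower. Dcp1b, a decapping activator, averaged 3.53 ± 0.27 FPKM in the knockout and 24.4 ± 2.02 FPKM in the control (log2 fold change -2.63, limma adjusted p = 1.3e-07). Dcp2, the decapping enzyme, averaged 9.53 ± 0.80 FPKM in the knockout and 3.07 ± 0.47 FPKM in the control (1.50, limma adjusted p = 1.6e-05). Dcp1a, also in the list, was higher (0.74), unlike Dcp1b. Xrn1, the exonuclease that degrades decapped RNA, was higher (0.95). Exosc10, a nuclease of the nuclear exosome, was lower as deposited (-0.80) and higher with FPKM rescaled to sum to 1000000 (0.38).

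Among 10 genes with transcripts known as NMD targets in mammals, 9 were higher and 1 was lower, under the deposited scaling and the other 4 scalings or models, with a median log2 fold change of 1.06 as deposited and 1.47 relative to all genes. Of all genes tested, 36.2% were higher as deposited, 54.2% with FPKM rescaled to sum to 1000000, 50.6% with reads rescaled to 1000000, 52.1% after quantile normalization and 38.9% with limma voom. Snhg1, a host of small nucleolar RNAs, averaged 9.0 ± 0.45 FPKM in the knockout and 3.14 ± 0.54 FPKM in the control (log2 fold change 1.39, limma adjusted p = 2.8e-05). Gadd45b and Gadd45a, growth arrest genes that stress and p53 also induce, averaged 18.4 ± 4.95 and 5.15 ± 0.84 FPKM in the knockout, against 3.29 ± 0.48 and 0.816 ± 0.339 FPKM in the control (2.30 and 2.13). The exception was Ddit3, the stress transcription factor CHOP, with 6.29 ± 0.60 FPKM in the knockout and 35.3 ± 3.75 FPKM in the control (-2.40, limma adjusted p = 3.8e-07). Total levels of these genes do not measure decay, and the cell type markers differed between the same libraries.

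**Figure D5:**
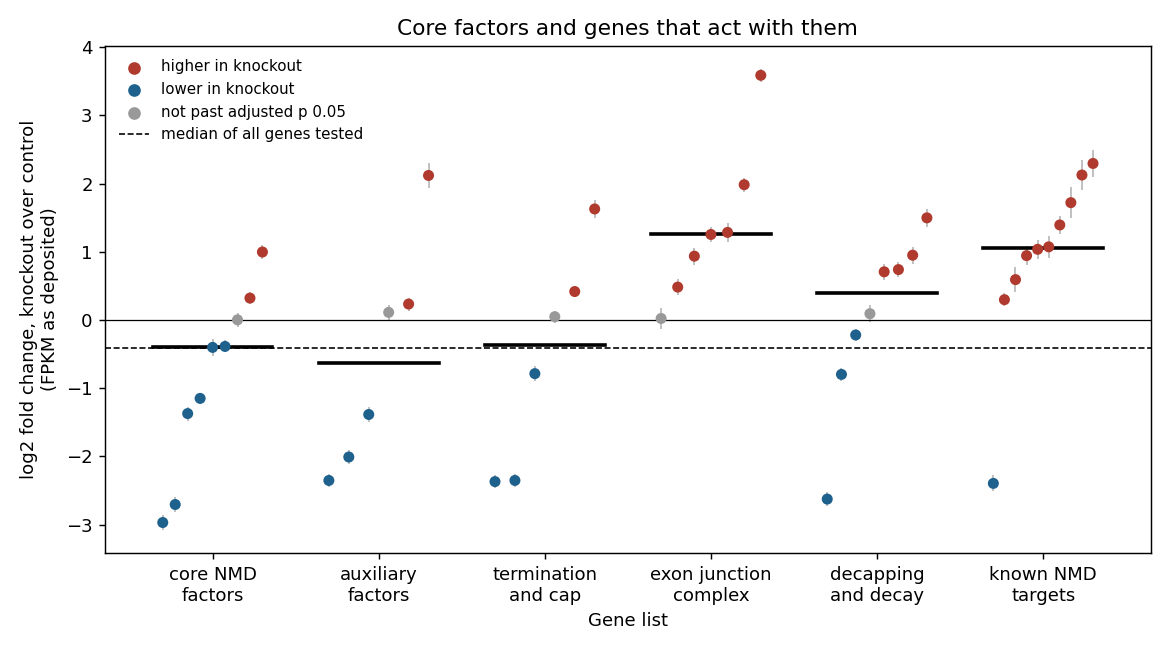
Fold change (log2, knockout over control, as deposited) with its SE for the 9 NMD factors and 5 lists, coloured by call. The lists hold genes that act with the factors or, in the last, known NMD targets. A black line marks each list's median and a dashed line the median of all genes tested. The 9 factors lie on both sides of the dashed line at -0.41. In the lists, 6 of 7 exon junction genes and 9 of 10 known targets are called higher, beside 36.2% of all genes tested.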

How the data were processed

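RNA sequencing of 3 knockout and 3 control libraries, grouped and numbered by their titles, was available as a deposited table of FPKM values made by the authors. The aligner was HISAT2 2.0.5 and the build mm10, according to the labels and per the submitters' processing notes. Which counter, annotation and strand setting the authors used is not given in the sources used here. The deposited table also gives, as other columns, gene lengths and 1-based coordinates. FPKM times length gave whole multiples of 1 read for 100% of nonzero genes (within 0.01 read), which recovered the reads. The authors' divisor matched median-of-ratios size factors computed from 19526 genes that had reads in all libraries. It was 1.37 to 1.42 times the read total in the knockout and 0.691 to 0.774 times in the control.

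The test was run in R 4.3.3 with limma 3.58.1, for genes whose mean reached 1 FPKM, on log2(FPKM + 0.5), which understates changes of low genes, with a mean-variance trend, Benjamini-Hochberg adjustment over all genes and a threshold of 0.05. The model was tested on simulated data in which few genes changed, equally in both directions, and levels were scaled by read total. That test does not cover the choice of scaling in libraries that differ as widely as these. Replicates differed beyond sampling noise (chi-square of 7.55 to 14.7 per gene). Ratios used an exact permutation test (scipy). The members and lists were chosen with earlier results of these data known, and 1 gene of the auxiliary list is not reported here and was left out of its counts. All 9 members are named. From each list, up to 4 genes with the smallest p were taken, and the nearest profile of each member, with the 2 title genes as a check. Ruvbl1, Ncbp2 and Dcp1a were named in addition, after seeing the data. Alternatives were other pseudocounts, filters and scalings, no trend, a replicate block and leaving out each library. Another was limma voom on the reads, with trimmed mean of M values factors.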

Additional observations from a re-analysis of the deposited data

How the results depend on the processing

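Counts of the 9 factors were 2 higher and 6 lower under the deposited scaling with pseudocounts of 0.1 and 1, no filter, a filter at 5 FPKM and no trend, and 2 higher and 5 to 6 lower when 1 library was left out. FPKM rescaled to sum to 1000000 gave 5 higher and 3 lower, reads rescaled to 1000000 gave 5 higher, and quantile normalization gave 4 higher and 3 lower. Of the 37 genes in the 5 lists, 23 were higher and 10 lower as deposited, and under those scalings 30, 28 and 30 were higher and 6, 7 and 7 lower, beside 54.2%, 50.6% and 52.1% of all genes higher and 36.2%, 38.9% and 36.8% lower. A filter at 5 FPKM, which tests fewer genes, called 3227 genes higher and 5320 lower, against 6075 and 8462. With 1 library left out, 5618 to 6064 genes were called higher and 7860 to 8609 lower, and in the lists 20 to 23 were higher and 9 to 10 lower. Of the 10 known targets, 7 to 9 were then higher, 8 with the block, and 5 of those left by the filter at 5 FPKM. In each of these settings 1 was lower. The filter at 5 FPKM drops targets of low level, such as Snhg12 and Snhg15. With 1 library left out, the log2 differences of the ratios kept their sign, at -2.75 to -2.53 for Upf3a over Upf3b, 3.75 to 3.86 for Smg8 over Smg9, 0.29 to 0.54 for Upf1 over Upf2, 0.21 to 0.40 for Smg1 over Upf1 and -0.26 to -0.12 for Smg5 over Smg6. Quantile normalization, tried for the ratios after seeing the data, turned those of Smg1 over Upf1 (-0.10) and Smg5 over Smg6 (0.23) and moved that of Upf1 over Upf2 to 0.71.

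Some signs turned, given in the order FPKM rescaled, reads rescaled, quantile. Upf2 gave 0.79, 0.51 and 0.59, Upf3b 0.73, 0.44 and 0.24, Etf1 0.39, 0.13 and 0.67, and Exosc10 0.38, 0.11 and 0.42. Smg6 turned only with FPKM rescaled, to 0.0020.

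The replicate numbers did not pair the samples: same-numbered libraries correlated at -0.12, -0.05 and -0.04 in their deviations from the group means. With the replicate number as a block, 5930 genes were higher and 8364 lower, and 2 and 6 of the 9 factors. None of the 9 factors, the title genes or the genes taken from the lists by smallest p lost its call under the block. The calls of the cell markers were not compared under it.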
